A study of Saccharomyces cerevisiae with 112 samples.

Results

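The 10 genes of daughter cell separation described here were followed in budding yeast that entered starvation and grew out of it again. They are 10 of the 6319 genes in the deposited table and were taken by systematic name: EGT2 (YNL327W), CTS1 (YLR286C), DSE1 (YER124C), DSE2 (YHR143W), DSE3 (YOR264W), DSE4 (YNR067C), SCW11 (YGL028C), AMN1 (YBR158W), ASH1 (YKL185W) and PIR1 (YKL164C). All 10 passed the filter on low values that left the genes tested.

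At the end of mitosis genes are switched on whose products cut the daughter free from the mother. The products include a chitinase and glucanases that digest the septum from the daughter's side. ASH1 mRNA is carried into the bud, and Ash1 keeps the HO endonuclease gene off in daughters.

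Messenger RNA was measured by RNA-seq in 8 strains at 7 times with 2 libraries each, and the set of 7 libraries that share a strain and a replicate number is called a series. The times were midlog growth, starvation after 72 h at 30 °C, 5, 30 and 90 min after release into fresh medium, and 1 and 2 population doublings after release. The deletion strains sir2D and sir4D came from a deletion library, MATa with a kanamycin marker, and sir3D is a MATa S288C strain with SIR3 replaced by KANR. Sir3_3xT7 and Sir3_3xHA carry a switchable loxP tag cassette at the C-terminus of Sir3, after and before the switch by estradiol, in the wt1 background, and the labels call them hypomorphs. Sir3_3xT7 derives from Sir3_3xHA, so these are not independent strains. The oeSir3 strain is W303 THC70, labelled MATa together with mat∆::TRP1, and has hmr::rHMRa, hml∆, sir3∆ and bar1∆::hisG and SIR3-HA under the GAL10 promoter at ura3-1, grown in YPGal and released into galactose. Its background, medium and Sir3 dose cannot be told apart against the wild types. The wild types are wt1 (S288C strain NKI12318, MATa, bar1::HisG, with a Cre-EBD78 gene) and wt2 (JOY1, a BY4741 relative, MATa bar1D:HIS5). Nothing in the labels ties replicates to cultures of their own, and the p-values below therefore speak of the spread among these libraries, which may be technical.

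Values are the authors' log2 of the median coverage of each coding sequence, scaled to a fission yeast spike-in added by mass of total RNA. Levels below are given relative to the median gene of the same library (log2, 0 at the median gene), and changes over time on the spike-in scale unless said otherwise. Since coverage is counted per base, levels can be set beside each other between genes. The call rule in what follows is an adjusted p below 0.05 by limma, with Benjamini-Hochberg adjustment over all genes tested, together with a log2 change of at least 1 in either direction. In bulk samples fewer cells at the end of mitosis and less RNA per cell cannot be told apart.

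Depth and library identity touch the results as follows. The median gene had 4 to 119.5 reads per library. The value that stands for no coverage differs between 2 sets of libraries, called batches here: replicate 1 of both wild types, of both tagged strains, of sir2D and of sir3D had 4 to 57 reads at the median gene (median 21), and all other series 9 to 119.5 (median 63.5). Within groups, Pearson's r between replicates across genes was 0.81 to 0.99. The sir2D replicate 1 libraries of 90 min and of 1 doubling correlated at 0.99, the highest of 6216 pairs of libraries, against 0.92 for the same pair in replicate 2. The wt2 replicate 1 library labelled midlog correlated at 0.94 with wt2 replicate 1 at 90 min and at 0.85 with the other wt2 midlog library; midlog and 90 min correlated at 0.94 in wt2 replicate 2 as well. These 4 libraries are called the libraries in doubt, and the values without them are given where they change a call or a direction. In the deletion strains the targeted gene was lower in growing cells, SIR2 by -5.14 in sir2D, SIR3 by -2.93 in sir3D and SIR4 by -3.75 in sir4D (log2), and SIR3 was higher by 5.71 in oeSir3. HMRA1, whose sequence is also at MATa, was lower by -7.70 in oeSir3. BAR1, the a-specific protease gene, stood in growing cells at -0.06 and -0.33 in oeSir3, at 0.32 to 0.98 in the tagged strains and at 1.02 and -0.11 in wt1 (log2 relative to the median gene), against -4.04 and -5.36 in wt2. BAR1 was thus measured near the median gene in oeSir3 and wt1 against their bar1 labels; what the hisG disruption leaves of the gene is not given in the sources used here.

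In growing wild-type cells the wall protein gene PIR1 and the chitinase gene CTS1 stood highest of the 10, at 4.83 ± 0.47 and 4.46 ± 0.14 (log2 above the median gene, mean of midlog, 1 and 2 doublings, SD over 4 series). DSE2, for a secreted protein that breaks down the wall from the daughter side, followed at 3.28 ± 0.64. AMN1, an antagonist of the mitotic exit network, stood at 2.46 ± 0.23, EGT2, for a wall protein needed for timely separation, at 2.42 ± 0.33, and the glucanase family gene SCW11 at 2.25 ± 0.28. PIR1 and CTS1 differed by less than the spread of PIR1, and so did AMN1, EGT2 and SCW11 among themselves by their own spread. DSE1, a daughter-specific gene, stood at 2.03 ± 0.18. The lowest were ASH1 (1.42 ± 0.35), the endoglucanase gene DSE4 (1.15 ± 0.39) and the bud neck gene DSE3 (1.06 ± 0.16). DSE4 and DSE3 differed by less than the spread of DSE4.

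**Figure D1:**
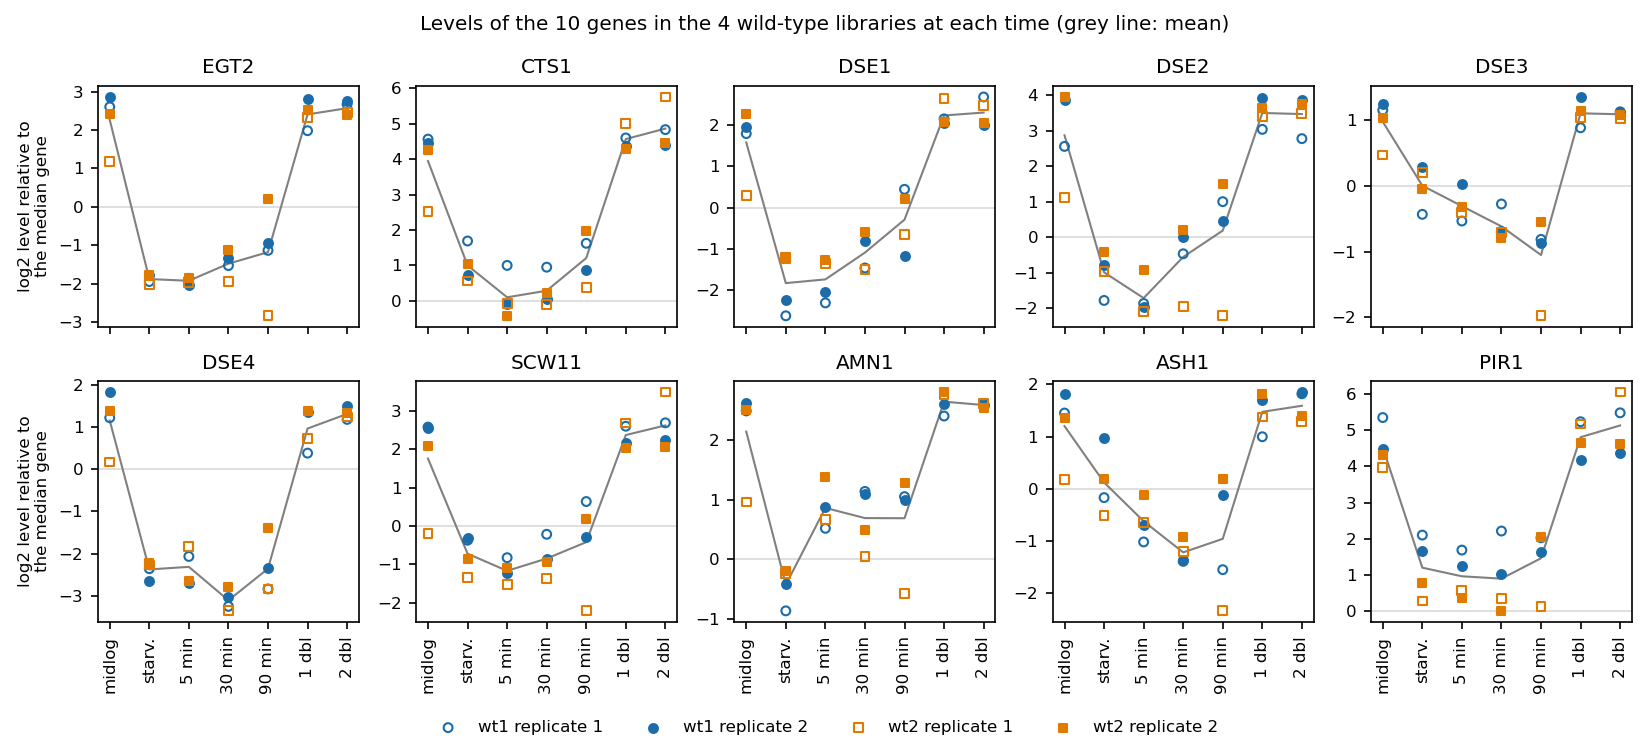
Log2 level relative to the library's median gene (vertical axis; a scale for each gene) at the 7 times (horizontal axis) for each of the 10 genes in the 4 wild-type series; circles are wt1, squares wt2, open symbols replicate 1, filled symbols replicate 2, and the grey line is the mean. All 10 genes are lower from starvation to 90 min than at 1 and 2 doublings, and for AMN1 wt2 replicate 1 lies apart at midlog (0.96) and 90 min (-0.57).

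All 10 genes were lower in starved wild-type cells than at midlog. On the spike-in scale the changes ran from -6.17 ± 0.62 for EGT2 (log2 ± SE, adjusted p = 2.21e-13 by limma) to -2.99 ± 0.54 for DSE3 (2.40e-06), with a median of -5.16. The loss was part of a general one: 71.7% of all tested genes were called lower, and the median of all genes was -1.96. Relative to the median gene, 9 of the 10 were called lower, against 21.5% of all genes, and DSE3 changed by -0.97, under the threshold of 1. Without the 4 libraries in doubt all 10 were called on the spike-in scale.

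EGT2 was at -2.03, -1.95, -1.78 and -1.77 in the 4 starved wild-type libraries, against 1.17, 2.43, 2.61 and 2.86 at midlog. The groups did not overlap, and the midlog value of 1.17 was that of the wt2 replicate 1 library in doubt. CTS1 was at 0.56, 0.72, 1.03 and 1.69 in starved cells, against 2.51, 4.25, 4.46 and 4.56 at midlog, so that starved cells kept it above the median gene. PIR1 was at 0.27, 0.76, 1.65 and 2.10 in starved cells, against 3.97, 4.32, 4.48 and 5.36 at midlog, again above the median gene throughout. DSE4 had the lowest starved mean of the 10, with libraries at -2.65 to -2.23, against 0.18 to 1.84 at midlog. Its reads were few there: over the starved libraries of all strains it had 0 to 10 reads (median 3), with 3 libraries listed at 0. ASH1 overlapped between the times relative to the median gene, at -0.52 to 0.98 in starved cells and 0.18 to 1.82 at midlog.

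The same step within each of the 8 strains, added after seeing the data, gave 8 to 10 of the 10 genes lower relative to the median gene. All 10 passed in sir2D (where 15.5% of all genes were called lower), sir4D (13.9%), Sir3_3xT7 (16%), Sir3_3xHA (18%) and wt1 (17.8%). In sir3D 9 passed (15.3%), in oeSir3 9 (21.4%) and in wt2 8 (20.4%).

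None of the 10 genes passed the limma test at 5 min after release against starvation, where 10.4% of all genes were called higher; 1 of the 10, AMN1, had an unadjusted p under 0.05. AMN1 changed by 1.69 ± 0.61 on the spike-in scale (adjusted p = 0.0580 by limma). It was at 0.52, 0.66, 0.89 and 1.39 in the 4 wild-type libraries at 5 min, against -0.86, -0.41, -0.24 and -0.20 at starvation, with no overlap. Relative to the median gene it was called, at 1.29 (adjusted p = 2.24e-04 by limma), where 11.6% of all genes were called higher, and on the spike-in scale it was called without the 4 libraries in doubt (0.0246). The other 9 genes changed by -0.51 to 0.49 on the spike-in scale.

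Between 5 and 30 min 4 of the 10 were called higher on the spike-in scale, where 39% of all genes were. They were DSE2, by 2.24 ± 0.76 (adjusted p = 0.0157 by limma), DSE1, by 1.73 ± 0.64 (0.0260), EGT2, by 1.52 ± 0.62 (0.0413), and SCW11, by 1.40 ± 0.59 (0.0478). The median of the 10 was 1.14 and that of all genes 1.08. Relative to the median gene none of the 10 was called, where 12.4% of all genes were called higher and 14.8% lower. With a pseudocount of 0.1 a single one of the 10 was called, and leaving out 1 wild-type series at a time gave 0 without wt1 replicate 2 and 5 without wt2 replicate 1. Without the libraries in doubt 5 were called, CTS1 (1.26) being the fifth. For these refits the share of all genes called is not given.

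Between 30 and 90 min none of the 10 passed the limma test or had an unadjusted p under 0.05, with changes of -0.35 to 1.00, while 0.701% of all genes were called higher and 0.521% lower. With the libraries in doubt left out, the changes were 0.23 (DSE3) to 1.98 (DSE2), with CTS1 at 1.63 and DSE4 at 1.42, and none was called by limma. Some genes that act before separation moved at this step. SWI5, which codes for a transcription factor of late mitosis, rose by 2.12 ± 0.47 (adjusted p = 0.00648 by limma). CHS2, the chitin synthase of the primary septum, rose by 2.76 ± 0.60 (0.00490 by limma), and HOF1, for a cytokinesis protein of the bud neck, by 2.82 ± 0.52 (5.27e-04). CHS2 and HOF1 were 2 of 18 genes of septum building to be called. None of 13 mitotic exit genes was, and without the libraries in doubt 1 was, the polo kinase gene CDC5 (2.35, adjusted p = 0.0128 by limma), named after its value was seen. Among 14 other Swi5 targets and M/G1 genes 3 fell, the PIR1 relative PIR3 (-3.67 ± 0.54, 3.43e-06), PST1 (-3.01 ± 0.51, 9.74e-05) and HO (-2.26 ± 0.51, 0.00731).

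The 10 genes rose together between 90 min and 1 doubling. On the spike-in scale all 10 were called higher, while 44 of all genes were (0.79%), so that the 10 made up 10 of those 44. The median change of the 10 was 3.46 and that of all genes 0.36. Relative to the median gene all 10 were also called, where 2.91% of all genes were.

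Among the genes for wall-digesting and wall proteins, EGT2 was at 1.98, 2.33, 2.52 and 2.80 in the 4 wild-type libraries at 1 doubling, against -2.84, -1.14, -0.94 and 0.19 at 90 min. On the spike-in scale EGT2 rose by 4.0 ± 0.62 (adjusted p = 1.41e-05 by limma). CTS1 was at 4.29, 4.38, 4.60 and 5.00 at 1 doubling, against 0.36, 0.87, 1.62 and 1.97 at 90 min (change 3.77 ± 0.55, 4.32e-06). The times did not overlap for EGT2 and CTS1, nor for any of the other 8 genes. The share of all genes without overlap between these times was not taken, so this count has no background beside it. PIR1 was at 4.17, 4.66, 5.18 and 5.24 at 1 doubling, against 0.13, 1.64, 2.02 and 2.04 at 90 min (change 3.76 ± 0.53, 4.32e-06). DSE4 was at 0.39 to 1.40 at 1 doubling and at -2.84 to -1.40 at 90 min (change 3.74 ± 0.58, 1.40e-05). DSE2 was at 3.04 to 3.92 at 1 doubling and at -2.21 to 1.51 at 90 min (change 3.72 ± 0.76, 0.00235). At 90 min wt2 replicate 1, a library in doubt, was the lowest wild-type library for 9 of the 10 genes, all but DSE1. SCW11 was at 2.05 to 2.69 at 1 doubling and at -2.21 to 0.64 at 90 min (change 3.20 ± 0.59, 3.73e-04).

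The changes of the regulators, of DSE1 and of DSE3 were smaller. ASH1 was at 1.00, 1.37, 1.7 and 1.82 at 1 doubling, against -2.34, -1.55, -0.13 and 0.18 at 90 min (change 2.85 ± 0.64, adjusted p = 0.00603 by limma). AMN1 was at 2.41, 2.60, 2.77 and 2.81 at 1 doubling, against -0.57, 1.00, 1.05 and 1.28 at 90 min (change 2.37 ± 0.61, 0.0287). AMN1 was close together among the 4 libraries at 1 doubling and spread by wt2 replicate 1 at 90 min. DSE1 changed by 2.93 ± 0.64 (0.00586) and DSE3 by 2.57 ± 0.54 (0.00331). Relative to the median gene, though not on the spike-in scale, DSE3 was the 1 gene of the 10 whose wild-type mean was lower at each successive time from starvation on, down to -1.05 ± 0.63 at 90 min (SD, n = 4).

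Among the 14 other Swi5 targets and M/G1 genes 5 rose at this step. They were HO (3.53 ± 0.51), the meiosis regulator gene RME1 (2.21 ± 0.49), NIS1 (2.10 ± 0.46), the cyclin gene PCL9 (1.93 ± 0.51) and PST1 (1.92 ± 0.51), of which PCL9 and PST1 are named after their values were seen. Without the libraries in doubt 2 were called, HO (3.22) and NIS1 (1.84). None of 13 mitotic exit genes, 18 septum building genes, 6 genes of ASH1 mRNA transport or 7 relatives of the members was called, and the medians of these lists ran from 0.12 to 0.59.

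**Figure D2:**
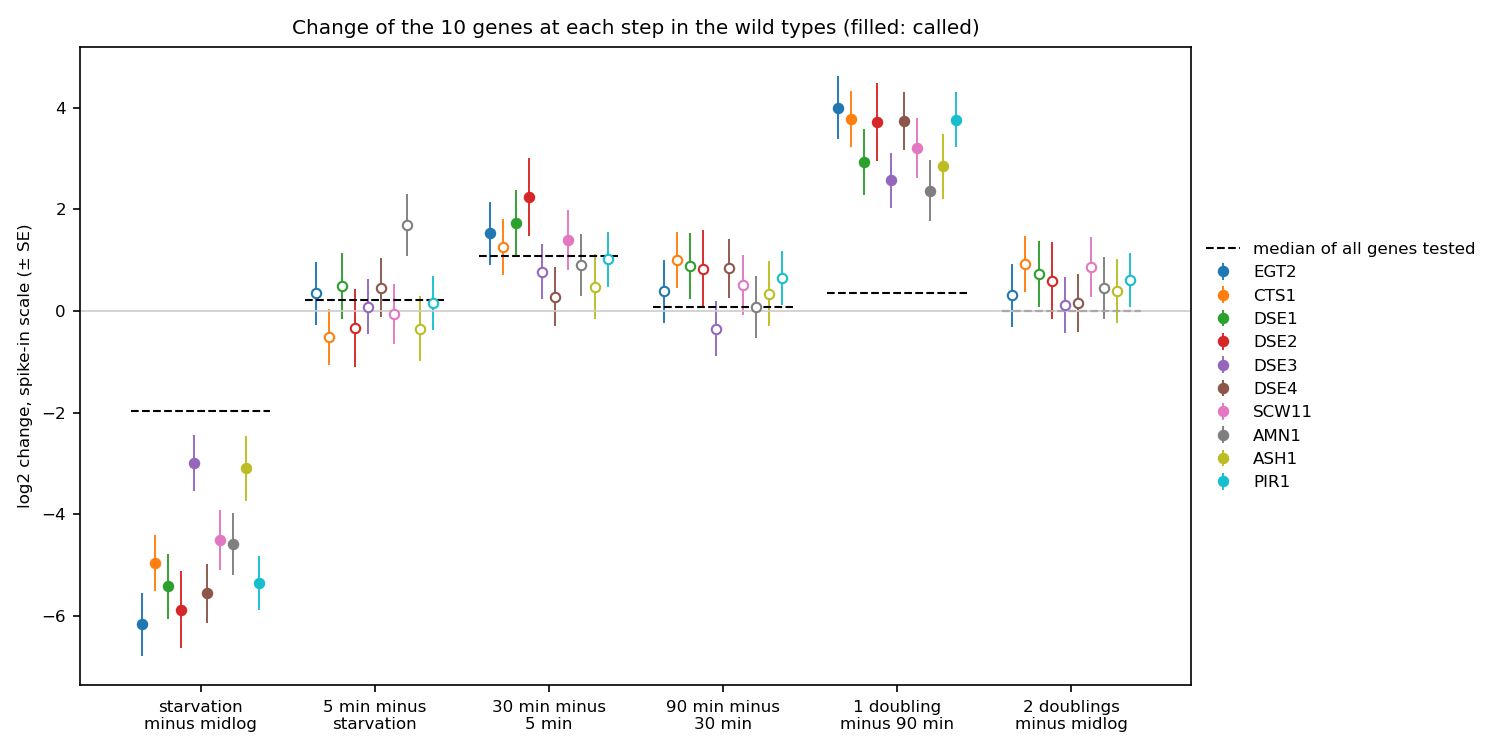
Log2 change on the spike-in scale in the wild types (vertical axis, ± SE) of the 10 genes at 6 steps (horizontal axis); filled points passed the test and the dashed line is the median of all genes tested. All 10 fell at starvation and all 10 rose between 90 min and 1 doubling, where the median of all genes was 0.36.

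On the spike-in scale the late calls depended on which libraries were used. The share of all genes called in the refits below is not given, so their counts have no background beside them. Without the 4 libraries in doubt 6 of the 10 were called (EGT2, CTS1, DSE1, DSE4, SCW11 and PIR1), and AMN1 changed by 1.68 (adjusted p = 0.317 by limma). Leaving out wt1 replicate 1 gave 6, wt2 replicate 1 gave 5, wt1 replicate 2 gave 6 and wt2 replicate 2 gave 10. In the batch with the lower depth alone none of the 10 was called, although the changes there were 2.87 to 4.67, against 1.87 to 3.55 in the other batch.

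Within single strains, relative to the median gene and added after seeing the data, all 10 rose in Sir3_3xHA (where 2.41% of all genes were called higher), oeSir3 (10.1%), wt1 (1.28%) and wt2 (0.503%). In sir3D 7 rose (0.521%), in Sir3_3xT7 7 (1.54%) and in sir4D 2 (0.126%), which were CTS1 and DSE4. In sir2D none of the 10 was called, where 0% of all genes were. There the 10 genes differed by 0.020 to 0.45 between 1 doubling and 90 min in replicate 1, the pair of libraries that were nearly alike. In sir2D replicate 2 EGT2 was at 1.95 at 1 doubling, against -0.27 at 90 min. The largest changes of the 10 genes within any strain were those of oeSir3, CTS1 at 5.12, PIR1 at 4.94 and EGT2 at 4.68. On the spike-in scale fewer of the 10 were called higher within strains. They were 9 in oeSir3 (where 4.28% of all genes were called higher), 4 in wt1 (0.18%), 3 in wt2 (0.0539%) and 2 in Sir3_3xHA (0.108%). None was called on that scale in sir2D (0%), sir3D (0%), sir4D (0%) or Sir3_3xT7 (0.018%). These differences in count between strains were not tested.

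**Figure D3:**
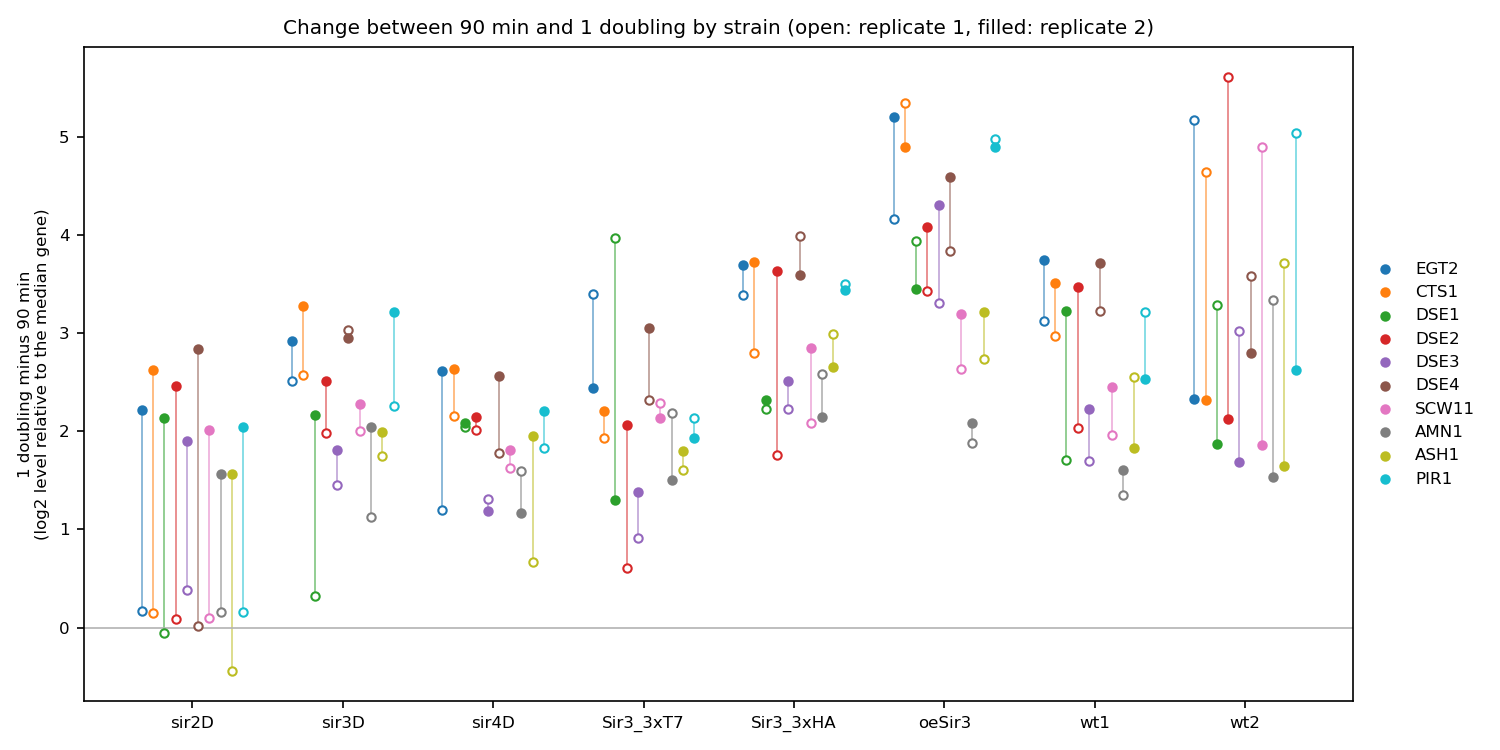
Level at 1 doubling minus level at 90 min, each relative to the median gene (vertical axis, log2), for the 10 genes in each strain (horizontal axis), with replicate 1 open and replicate 2 filled. The 10 genes lie above 0 in both replicates of all strains except sir2D, whose replicate 1 lies near 0.

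At 2 doublings against midlog the changes of the 10 genes were 0.11 to 0.92 on the spike-in scale. The direction rested on wt2 replicate 1 at midlog, a library in doubt: without the 4 libraries in doubt all 10 changes were negative, -0.75 (DSE4) to -0.08 (PIR1). Within the batches they were 0.78 to 2.42 in that of lower depth and -0.71 to -0.41 in the other. With all libraries none was called by limma, none had an unadjusted p under 0.05, and 0.018% of all genes were called higher and 0.018% lower. AMN1 was at 2.55 to 2.62 in the 4 wild-type libraries at 2 doublings, against 0.96 to 2.62 at midlog.

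The 10 genes shared a shape over all strains and times. Over the 56 means of a strain at a time, pairs of them correlated at 0.63 to 0.98 (Pearson's r, median of 45 pairs 0.89), as a description of means that share libraries and depth. EGT2 lay closest to the mean of the other 9 (0.99) and AMN1 furthest (0.79). Outside the group, the genes most like the mean standardized profile of the 10 over the 56 means were PRY3 (0.95), for a wall protein, AIM44 (0.95), for a bud neck protein, the oligopeptide transporter gene OPT1 (0.93), the sterol synthesis gene HMG1 (0.93), PGM1 (0.92), SSA2 (0.91), FAS2 (0.91), SAM2 (0.91), ALO1 (0.91) and YOL057W (0.90). PRY3, AIM44, OPT1 and SSA2 were also among the 10 most alike over the 14 wild-type means alone. The outside genes named over the 56 means, chosen as the most alike, lay above AMN1 (0.79) and DSE3 (0.84). Correlations of pairs over all genes are not given, so the shape is not shown to be particular to the 10.

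In growing cells AMN1 was the 1 gene of the 10 called between strains. Its average of midlog, 1 and 2 doublings was 0.79 and 1.03 in the sir2D series, 0.79 and 1.00 in sir3D and 1.01 and 0.97 in sir4D, against 2.50 and 2.60 in wt1 and 2.12 and 2.62 in wt2. No deletion series reached a wild-type one. AMN1 was lower by -1.55 ± 0.19 in sir2D (log2 ± SE, adjusted p = 7.52e-04 by limma), by -1.57 ± 0.19 in sir3D (7.16e-04) and by -1.47 ± 0.19 in sir4D (0.00108), where 0.629%, 0.521% and 0.629% of all genes were called lower. The 3 comparisons share their wild types. Within the 2 batches the change was -1.53 and -1.58 in sir2D and -1.52 and -1.62 in sir3D, and -1.62 in sir4D, which has both series in 1 batch. Without the 4 libraries in doubt AMN1 was lower by -1.49 in sir2D, -1.71 in sir3D and -1.62 in sir4D, all called. On the spike-in scale the changes were -1.31 in sir2D, -2.07 in sir3D and -1.10 in sir4D and none was called.

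The other 9 genes were not called in any deletion strain. Their changes in growing cells were -1.01 to 0.87 there, with PIR1 at -1.01 in sir2D and -0.96 in sir4D and DSE2 at 0.87 in sir4D. None of the 10 was called in Sir3_3xT7 (0.144% of all genes were called in either direction), in Sir3_3xHA (0.0539%), in oeSir3 (13.7%) or in wt2 minus wt1 (0.0719%). In the tagged strains the other 9 ran from -0.46 to 0.30. With the libraries in doubt left out, the 9 ran from -1.10 to 0.68 in the deletions and from -0.70 to 0.02 in the tagged strains.

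In Sir3_3xT7 AMN1 was at 2.26 and 2.46 at midlog, against 0.96, 2.49, 2.50 and 2.62 in the wild types, so that it lay below all wild-type libraries but the one in doubt. At 1 doubling it was at 1.45 and 1.42, against 2.41 to 2.81 in the wild types, and at 2 doublings at 1.57 and 1.75, against 2.55 to 2.62. At both doublings the Sir3_3xT7 values lay between those of the deletions and of the wild types. With 1 and 2 doublings alone, a split added after seeing the data, AMN1 was called lower in Sir3_3xT7 by -1.07 ± 0.19 (adjusted p = 0.0388 by limma), where 0.216% of all genes were called lower. The same split gave -1.83 in sir2D (0.557% of all genes called lower), -1.79 in sir3D (0.521%) and -1.63 in sir4D (0.611%), all called. It gave -0.32 in Sir3_3xHA and -0.30 in oeSir3, neither called. With midlog alone AMN1 was not called in any strain, at -1.01 in sir2D (0.485%), -1.12 in sir3D (0.341%), -1.16 in sir4D (0.503%) and 0.21 in Sir3_3xT7, where the wt2 replicate 1 library in doubt counted among the wild types. Whether the change in Sir3_3xT7 differs between midlog and the doublings was not tested.

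**Figure D4:**
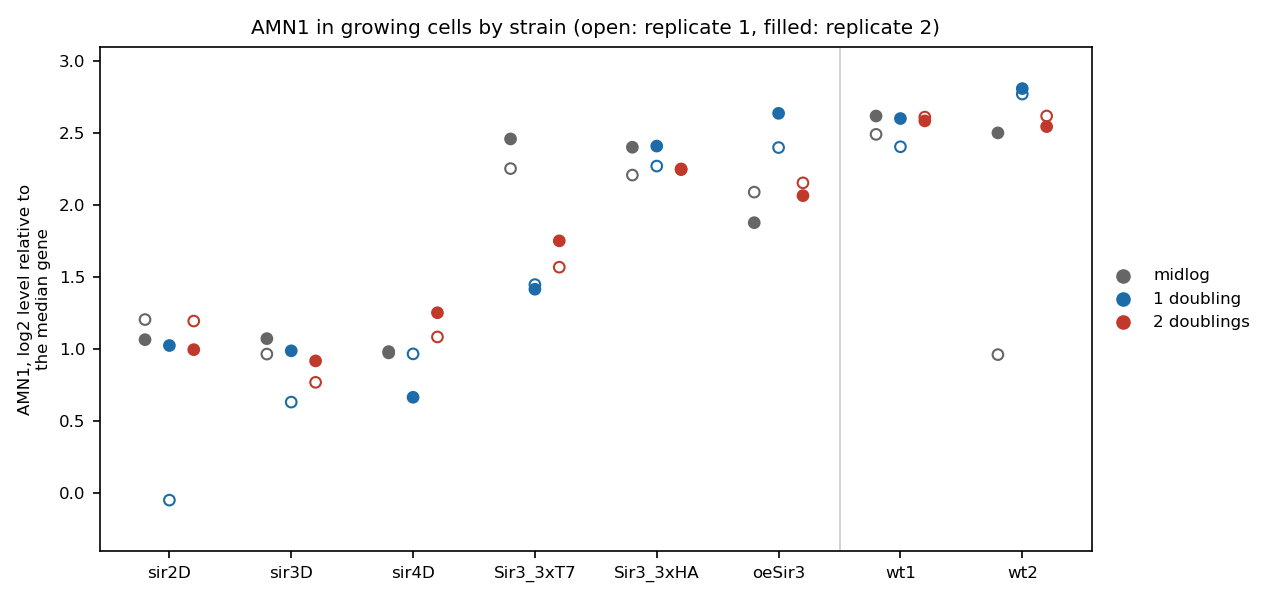
AMN1 level relative to the median gene (vertical axis, log2) in growing cells by strain (horizontal axis), with midlog grey, 1 doubling blue and 2 doublings red; open symbols are replicate 1 and filled replicate 2. The 3 deletions lie at -0.05 to 1.25, and Sir3_3xT7 at 2.26 and 2.46 at midlog and at 1.42 to 1.75 at 1 and 2 doublings. The wild types lie at 2.41 to 2.81 but for the wt2 replicate 1 midlog library at 0.96.

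Among the lists of genes that mark mating type, the haploid-specific and a-specific ones moved with AMN1. When silencing is lost, cells make both a1 and alpha2, and the a1/alpha2 repressor shuts off haploid-specific genes. Of 10 tested haploid-specific genes, 9 were called lower in sir2D, 8 in sir3D and 9 in sir4D in growing cells, with list medians of -4.16, -4.00 and -4.67. Of 7 a-specific genes 6 were called lower in each. Of 4 alpha-specific genes 0 were called in each, with list medians of -0.03, 0.17 and -0.27. Of 4 silent cassette genes 1 passed the filter on low values, HMRA1, which was not called in the deletions. The gene for alpha2 was therefore not tested. The summed level of the haploid-specific genes was 0.29 to 0.74 in the 6 deletion series, against 3.97 to 4.35 in the wild types (log2 relative to the median gene). In Sir3_3xT7 that sum was 4.13 and 3.68 at midlog, against 3.58 to 4.07 in the wild types, and 3.02 and 2.53 over 1 and 2 doublings, against 4.06 to 4.49. In the deletions, and in Sir3_3xT7 at 1 and 2 doublings, the sum was thus below every wild-type series, as AMN1 was. GPA1 (-1.60) and FAR1 (-1.76) were the 2 haploid-specific genes called lower in Sir3_3xT7 over all growing libraries. Their part in the AMN1 result was not tested.

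The a1/alpha2 operator, a pattern with fixed letters and free spacers, was searched on both strands in the 600 bases before the coding start of each gene, in the R64 genome of RefSeq, over 6005 promoters. The closest match at AMN1 had 3 mismatches to the fixed letters, and none of the 10 genes had a match with at most 1. Of the 12 haploid-specific genes in the list 6 did, against 2.16% of all promoters, and HO matched in full. None of the 10 lies near that low share, so the lack of a match says nothing particular about them. A match with at most 2 mismatches was found in 26.9% of all promoters, and the share with 3 was not taken. Both closest matches are shown with matching fixed letters in capitals, since they are what the search compared, and are read 5′ to 3′ along the gene's strand. A match is a string of letters and not a shown binding site.
AMN1, chrII:556206-556222, plus strand: TGTggatAtaTAtATat
HO, chrIV:48436-48452, minus strand: TGTtattAttTACATCA

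At 90 min AMN1 changed by -1.06 in sir2D (where 0.359% of all genes were called in either direction), -1.47 in sir3D (0.377%), -1.26 in sir4D (0.431%), -1.10 in Sir3_3xT7 (0.144%) and -0.71 in Sir3_3xHA (0.0719%), and none of the 10 genes was called in these strains. Its wild-type values there were 1.00, 1.05, 1.28 and, in the library in doubt, -0.57. With the 4 libraries in doubt left out, AMN1 changed by -1.69 in sir2D, -1.93 in sir3D, -1.72 in sir4D, -1.56 in Sir3_3xT7 and -1.17 in Sir3_3xHA, and was called lower in sir3D (adjusted p = 0.0415 by limma) and in none of the other 4.

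Relative to the median gene, CTS1 in oeSir3 lay apart from the wild types at every time from starvation on, and DSE1 and PIR1 at some. In starved cells DSE1 was at -0.24 and -0.03 in oeSir3, against -2.62, -2.25, -1.24 and -1.21 in the wild types. At 30 min it was at -2.94 and -2.63 in oeSir3, against -1.49 to -0.60 in the wild types, and at 1 doubling at 1.67 and 1.57, against 2.05 to 2.64. Relative to the median gene, DSE1 in oeSir3 was above every wild-type library at starvation and below every one from 30 min on. Starved DSE1 on the spike-in scale was at -3.54 and -3.89 in oeSir3, within the wild-type range of -4.33 to -3.03, and the groups overlapped at 30 min and at 1 and 2 doublings too. At 90 min it was below every wild-type library on both scales.

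Over the 8 strains, starved levels differed by the F test for DSE1 (F = 11.8, adjusted p = 0.00252 by limma), DSE2 (4.62, 0.0387) and DSE3 (4.68, 0.0376), where 23.7% of all genes passed, so that 3 of 10 lies near the background. DSE1 failed the test under 1 of 23 alternatives, the spike-in scale, while DSE2 failed under 12 and DSE3 under 15. DSE3 was at 0.66 and 1.10 in starved oeSir3 cells, against -0.43 to 0.29 in the wild types. The direction turned on the spike-in scale, with DSE3 at -2.64 and -2.76 in oeSir3, against -2.58 to -1.56. Outside oeSir3, DSE2 was lowest in starved Sir3_3xT7 cells, at -2.33 and -2.76, against -1.78 to -0.41 in the wild types. Starved oeSir3 cells were at -1.49 and -1.20, but from 2 and 0 reads of DSE2, against 3 and 7 in Sir3_3xT7. With 0 reads only the constant added before the log is left, so these values cannot rank DSE2 between oeSir3 and Sir3_3xT7. Scaled to the spike-in, DSE2 was at -4.16 and -3.45 in Sir3_3xT7, overlapping the wild types' -3.76 to -2.19. The oeSir3 replicate 2 starvation library had 9 reads at its median gene.

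At 5 min PIR1 was at -0.48 and -1.23 in oeSir3, below the 0.35 to 1.68 of the wild types. PIR1 was at 3.29 and 2.28 in oeSir3 at 30 min, against 0.00, 0.33, 1.03 and 2.21 in the wild types. At 90 min it was at -0.58 and -0.46 in oeSir3, against 0.13, 1.64, 2.02 and 2.04. PIR1 in oeSir3 was above the wild types at 30 min and below them at 90 min relative to the median gene; scaled to the spike-in, it was at -0.73 and -0.38 at 90 min, above wt2 replicate 1 (-0.94), a library in doubt, and below the other 3. The 90 min minus 30 min change of PIR1 differed over the strains by the F test (F = 15.3, adjusted p = 0.00238 by limma). PIR1 was the 1 of the 10 that passed, where 6.61% of all genes did, so that 1 of 10 lies near the background. Without oeSir3 replicate 1 the adjusted p by limma was 0.0544, and on the spike-in scale 0.0624; without the 4 libraries in doubt F was 26.5 (adjusted p = 0.00116 by limma). At 1 doubling oeSir3 PIR1 was at 4.40 and 4.44, within the wild-type range of 4.17 to 5.24.

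CTS1 was at -1.37 and -1.19 in oeSir3 at 90 min, against 0.36, 0.87, 1.62 and 1.97 in the wild types, a change of -2.49 ± 0.56 (adjusted p = 0.0197 by limma), where 3.72% of all genes were called lower. The groups did not overlap. PIR1 (-1.98, 0.0588), DSE1 (-1.79, 0.0659) and DSE4 (-1.41, 0.0854) had lower values without passing. Without the 4 libraries in doubt CTS1 (-2.89), PIR1 (-2.46) and DSE4 (-1.77) were called. CTS1 was not called without oeSir3 replicate 1 (-2.40, adjusted p = 0.270 by limma), without wt1 replicate 1 (-2.30, 0.0629) or on the spike-in scale (-2.05, 0.852). In growing cells DSE4 (-0.95 ± 0.26, adjusted p = 0.0241 by limma) and CTS1 (-0.79 ± 0.22, 0.0242) differed in oeSir3 by less than the threshold of 1, and without the 4 libraries in doubt both were called (-1.01 and -1.03). The low CTS1 level in oeSir3 was not confined to 90 min. Relative to the median gene it was below every wild-type library from starvation on. It was at 0.04 and 0.39 in starved cells, against 0.56 to 1.69, and at -0.77 and -1.59 at 30 min, against -0.10 to 0.95. On the spike-in scale the groups overlapped at 1 doubling. The F test over strains in starved cells did not pass for CTS1 (adjusted p = 0.228 by limma). PIR3, the relative of PIR1, was higher in growing oeSir3 cells by 2.34.

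**Figure D5:**
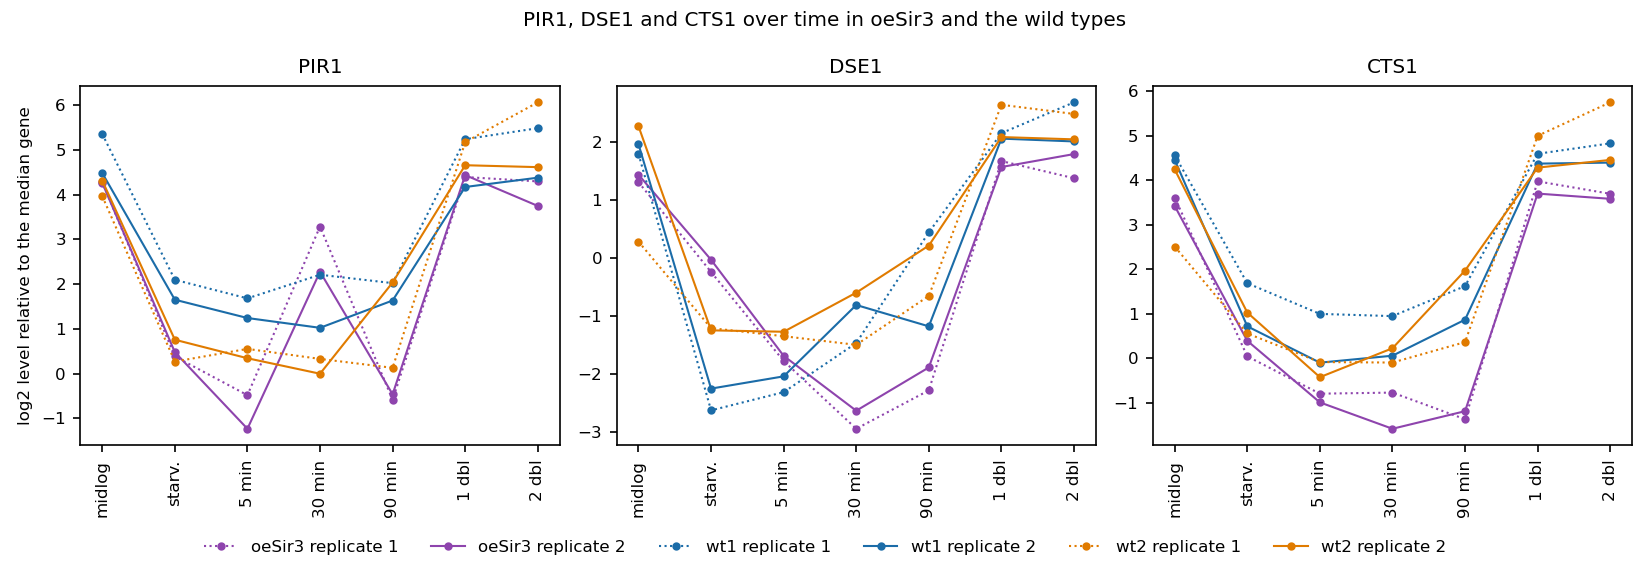
Level of PIR1, DSE1 and CTS1 relative to the median gene (vertical axis, log2) over the 7 times (horizontal axis) in oeSir3 (purple), wt1 (blue) and wt2 (orange), with replicate 1 dotted and replicate 2 solid. Among the times after starvation and before the doublings, oeSir3 PIR1 is highest at 30 min (3.29 and 2.28). DSE1 is above the wild types when starved and below them from 30 min on. For DSE1 the groups overlap on the spike-in scale at these times except 90 min. CTS1 is below the wild types from starvation on, at -1.37 and -1.19 at 90 min.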

How the data were processed

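The deposited table holds, per the labels' protocols, log2 values of the median coverage of each coding sequence, which the authors scaled to a Schizosaccharomyces pombe spike-in mixed 10:1 by mass of total RNA, so values are relative to total RNA and not per cell. Per the labels, libraries were made from DNase I treated, oligo-dT selected RNA with either of 2 stranded kits. CASAVA 1.7.0 and the fission yeast assembly ASM294v2 are listed in the submitters' processing notes, and the budding yeast build is not given in the sources used here. In each library 1 value stood for no coverage and was set to 0. Reads of the median gene per library (4 to 119.5) come from the steps between low values, and their number limits the precision.

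From there, log2(value + 0.03) was tested with limma 3.58.1 in R 4.3.3, two-sided, on genes over 0.15 in at least 4 libraries. Time steps used all libraries, the wild types averaged, on 56 residual degrees of freedom, which treats the libraries of a series as independent. Strain comparisons used series means on 8 degrees of freedom, with each library set to its median gene. F tests spanned the strains. The same fits were tested on simulated data. A promoter search and 1 gene list are not reported here. File coordinates were not used; promoters come from R64, and 5694 genes matched its names. The members and lists were chosen with earlier results of these data known. Genes named beside the 10 were up to 3 of each list called in a comparison, by size, the 10 most alike and the targeted genes. Alternatives were another pseudocount, no filter, the other scaling, a replicate block, batches apart, and libraries or series left out. No block was used because the check of replicate pairing was not over 0.1 in every pair of times in 3 strains. It was over 0.1 in 16, 12 and 20 of 21 pairs in wt2, sir4D and oeSir3. Its median r was still 0.65 in wt2, and in wt1 it was 0.61 with all 21 pairs over 0.1. The time steps may therefore leave out a pairing within the wild types.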

Additional observations from a re-analysis of the deposited data

Results flagged for a closer look

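In 4 of 70 groups of 4 wild-type libraries 1 library stood apart from the other 3 by Dixon's test. Independent groups would give 5% by chance, but these groups share libraries, so that rate cannot be applied to them. In all 4 the library was that of wt2 replicate 1. At midlog CTS1 was at 2.51 in that library, against 4.25 to 4.56 in the others, and AMN1 at 0.96, against 2.49 to 2.62; the library had 8 reads at its median gene. At 90 min AMN1 was at -0.57, against 1.00 to 1.28. At 1 doubling DSE1 was at 2.64, against 2.05 to 2.15.

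The PIR1 change from 30 to 90 min differed over the strains by the limma F test (F = 15.3, adjusted p = 0.00238). Of all genes 6.61% passed this test, so that 1 of the 10 lies near the background. PIR1 failed it under 2 of 23 alternatives, the spike-in scale among them (adjusted p = 0.0624 by limma). PIR1 was above the wild-type libraries in both oeSir3 libraries at 30 min and below them at 90 min, relative to the median gene.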

How the results depend on the processing

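The 32 called results for single genes were recomputed 466 times, and 90 of these recomputations no longer passed. None changed direction, which says nothing for the F tests among them, since an F value has no sign. Counts of the 10 genes called moved by over 1.5 times as follows, and the cause was not tested. For most alternatives the share of all genes called is not given, so these counts have no background beside them. With a pseudocount of 0.1 the step from 5 to 30 min had 1. On the other scaling the step from starvation to 5 min had 1 and that from 5 to 30 min 0, growing sir2D, sir3D and sir4D had 0 each, oeSir3 at 90 min 0 and the 30 to 90 min F test 0. With the replicate block, starvation to 5 min had 1 and oeSir3 at 90 min 2; the block moved no other count this far. Without libraries under 10 reads, starvation to 5 min had 1 and the starvation F test 1. In the batch of lower depth alone, 5 to 30 min and 90 min to 1 doubling had 0 each. In the other batch alone, starvation to 5 min had 1, growing oeSir3 1, sir4D at 90 min 1 and oeSir3 at 90 min 3. Without the 4 libraries in doubt, an alternative chosen after seeing the data, starvation to 5 min had 1, 90 min to 1 doubling 6, growing oeSir3 2, sir3D at 90 min 1 and oeSir3 at 90 min 3. With midlog alone sir2D, sir3D and sir4D had 0 each, and with 1 and 2 doublings alone Sir3_3xT7 had 1; both splits were chosen after seeing the data.

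Leaving out 1 series at a time gave 0 to 1 for starvation to 5 min, 0 to 5 for 5 to 30 min, 5 to 10 for 90 min to 1 doubling, 0 to 1 for growing oeSir3, 0 to 1 for sir3D and 0 to 1 for sir4D at 90 min, 0 to 4 for oeSir3 at 90 min, 1 to 4 for the starvation F test and 0 to 2 for the 30 to 90 min F test; where it left a strain with 1 series, that series is assumed to vary like the others. Depth limits DSE4 most, with 7 libraries listed at 0, against 1 each for DSE1 and DSE2 and none for the other 7 genes.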
